A study of Mus musculus with 59 samples.

Results

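The core autophagy machinery was followed as a fixed list of 38 genes, matched by symbol to the 32070 genes of each of 2 deposited expression tables, and all 38 were present and tested in both. Values were TPM, the share of a library's transcripts that each gene takes up after correction for transcript length. The cells were primary microglia, the resident macrophages of the brain, cultured from mouse pups at postnatal day 0 or 1. Knockout (KO) cultures were Tbk1 fl/fl with the Cx3CR1-Cre transgene, heterozygous (HET) cultures were Tbk1 fl/+ with the same transgene, and wild-type (WT) cultures were Tbk1 fl/fl without it. Cx3CR1-Cre acts in microglia and other cells that express Cx3cr1, so KO and HET cultures shared the recombinase while WT cultures lacked it, and any difference from WT also holds the presence of Cre. After 16 h of plating, the cells received lipopolysaccharide (LPS, 100 ng/mL), interleukin 4 (IL4, 20 ng/mL) or the double-stranded RNA mimic poly(I:C) (pIC), or were left untreated (UT), all for 24 h. The labels do not state the pIC dose. Each of the 12 groups held 5 libraries from independent cultures, except WT UT, which held 4, for 59 libraries in all. The untreated, LPS and IL4 libraries formed 1 table of 44, and the pIC libraries a second table of 15, so pIC was tested only between genotypes.

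Autophagy encloses cytoplasm in a double membrane and delivers it to lysosomes. The ULK kinase complex starts the process, a class III phosphatidylinositol 3-kinase complex marks the growing membrane, lipid is supplied by transfer proteins and scramblases, and 2 linked conjugation reactions attach small ATG8 proteins (the LC3 and GABARAP families) to that membrane. Receptors bind cargo and ATG8 proteins together, and SNARE and tethering proteins fuse the closed autophagosome with the lysosome. TBK1, the kinase deleted here, phosphorylates several cargo receptors and also drives interferon induction downstream of the receptors for LPS and double-stranded RNA. In microglia autophagy takes part in clearing phagocytosed material and in restraining inflammatory signalling.

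Tbk1 itself was reduced in the KO libraries. Under LPS it averaged 18.0 ± 5.14 TPM in KO, 60.5 ± 4.08 in HET and 90.9 ± 8.37 in WT microglia (SD, n = 5 each). Under IL4 the averages were 15.6 TPM in KO, 31.0 in HET and 44.0 in WT, under pIC 23.8, 53.9 and 82.5 in the same order, and without treatment 19.9, 34.9 and 47.5. In the limma fits described below, Tbk1 was called lower in KO than in WT under every treatment. The log2 differences were −1.236 in UT, −2.308 under LPS, −1.485 under IL4 and −1.767 under pIC. Between HET and WT, Tbk1 was not called under any treatment. All 15 microglial markers were present in every group, and their summed level was 3302 to 7219 TPM over the 15 LPS libraries and 13093 to 17009 TPM over the 14 untreated ones. Libraries had 12428 to 14581 genes at 1 TPM or more, and their 50 most abundant genes took 23.4% to 38.3% of all transcripts. Sequencing depth is unknown from TPM, so no counting interval is given.

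Changes were tested with limma on log2(TPM + 1) over all genes that reached 1 TPM in 4 or more libraries, which left 15908 genes in the first table and 13919 in the pIC table. Log2 differences are on that scale, with standard errors, and every adjusted p is limma's, adjusted by Benjamini-Hochberg over all genes tested, with 0.05 as the threshold. Because TPM is a share, a few very abundant transcripts can lower the values of every other gene in a library. Each test was therefore repeated after median-of-ratios scaling, which brings the typical gene to the same level in each library. A member is called higher or lower "under both scalings" where both fits passed the threshold in the same direction. With LPS against UT, the genes higher under both were exactly those higher on the TPM scale (2085, 2275 and 2210 in KO, HET and WT). Those lower under both were exactly those lower after scaling (4629, 5186 and 5139). There the second fit added no hurdle to the TPM fit for a rise, or to the scaled fit for a fall. The p-values measure the spread between these cultures.

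Gabarap was the most abundant member in these cells and Epg5 the least. Over all 59 libraries Gabarap averaged 545 TPM, with a range of 442 to 616 TPM. Next came Map1lc3b at 163 TPM, the endoplasmic reticulum scramblase gene Vmp1 at 137 TPM, Becn1 at 118 TPM, Gabarapl1 at 114 TPM, the cargo receptor genes Tax1bp1 at 99.1 TPM and Nbr1 at 91.8 TPM, and Gabarapl2 at 86.7 TPM. The other 30 members averaged 46.1 TPM (Atg3) or less. The 3 lowest were Atg14 at 10.2 TPM, Atg16l2 at 9.95 TPM and Epg5, a tether for fusion, at 6.82 TPM. Neighbours in this order overlapped in range except for the first pair, since Gabarap's lowest library (442 TPM) lay above the highest library of Vmp1 (257 TPM) and of Map1lc3b (248 TPM). The widest relative ranges belonged to Tfeb, at 3.04 to 38.9 TPM, and Map1lc3a, at 10.1 to 88.9 TPM.

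**Figure D1:**
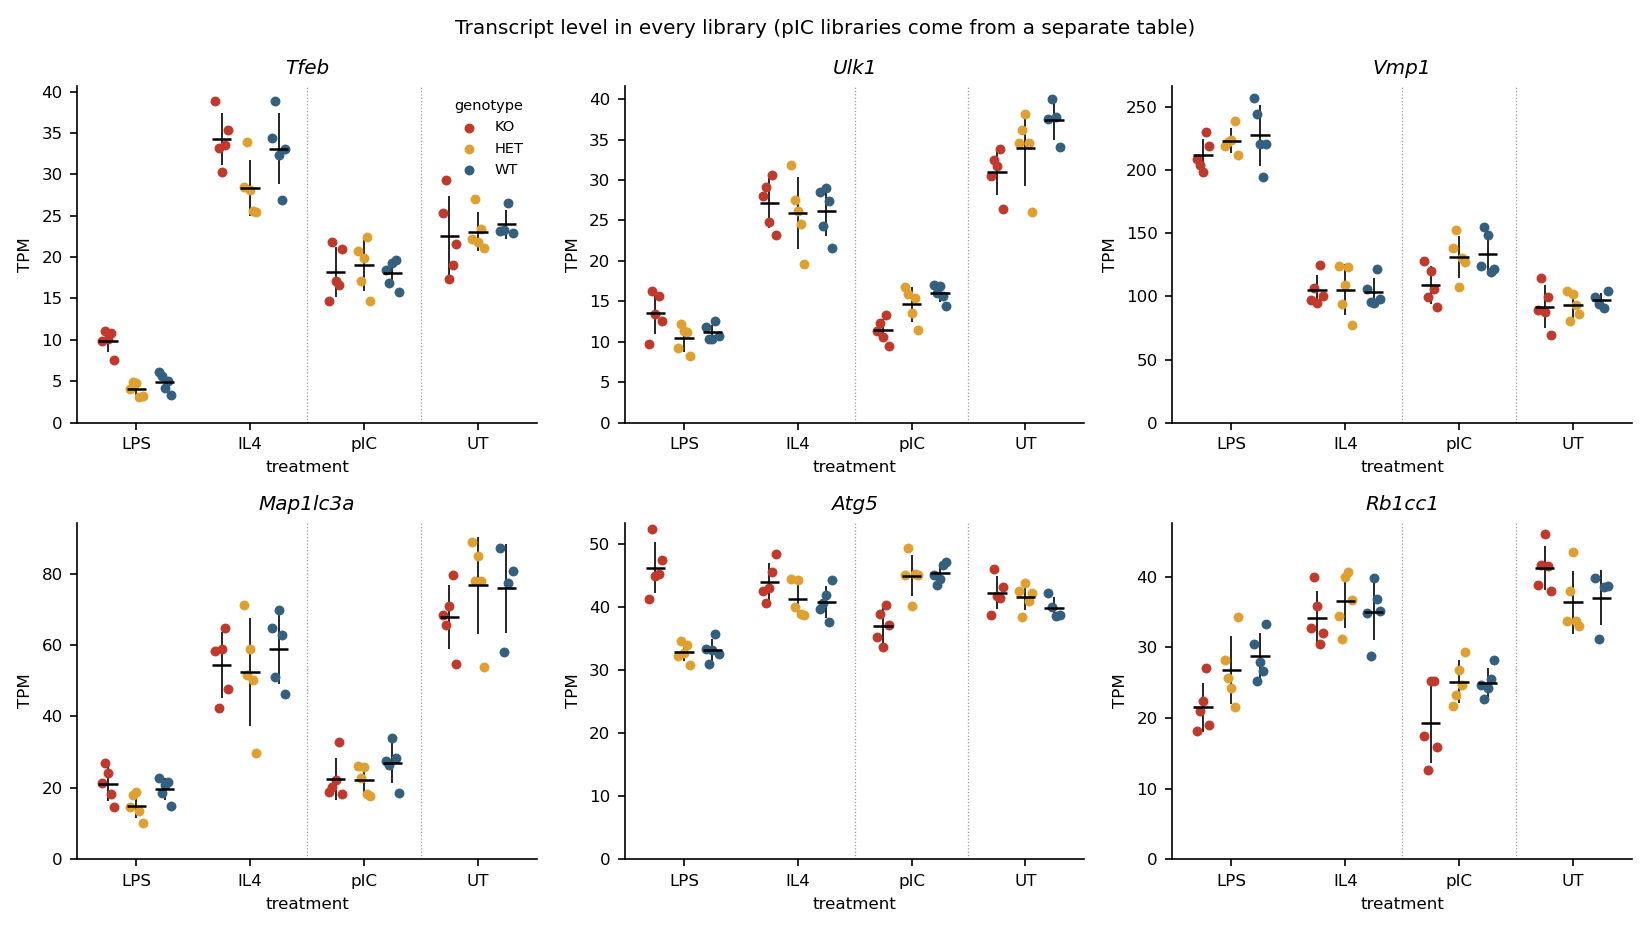
TPM of Tfeb, Ulk1, Vmp1, Map1lc3a, Atg5 and Rb1cc1 in every library, by treatment and genotype, with 1 point per library and bars for the mean and SD (n = 5 per group, 4 in WT UT). Tfeb lies at 3.04 to 11.1 TPM in the LPS libraries and at 14.7 to 38.9 TPM in all others, and the mean of Vmp1 is highest under LPS in each genotype.

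LPS divided the machinery. In all 3 genotypes Vmp1, the vesicle scramblase gene Atg9a and the ATG8 protease genes Atg4a and Atg4d rose, and Tfeb, Map1lc3a, Ulk1, Ulk2, Calcoco1 and Atg16l2 fell by more than 1 log2 unit on the TPM scale. In KO microglia 5 of 38 members (13.2%) were higher under both scalings than in untreated cells, beside 13.1% of all genes, and 16 (42.1%) were lower, beside 29.1%. In HET microglia 4 members were higher, beside 14.3% of all genes, and 15 were lower, beside 32.6%. In WT microglia 4 members were higher, beside 13.9%, and 12 were lower, beside 32.3%. The shares of higher members, and of lower members in WT, lay near those of all genes.

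For many members the direction depended on the scaling. LPS moved the median of all genes by −0.44, −0.51 and −0.59 (log2) in KO, HET and WT on the TPM scale, and by −0.03, −0.05 and −0.06 after median-of-ratios scaling. The median member moved by −0.54, −0.51 and −0.46 in KO, HET and WT on the TPM scale, and by −0.04, 0.08 and 0.19 after scaling. In KO the fit on the TPM scale called 5 members higher and 25 lower, beside 13.1% and 56.5% of all genes, and the fit with median-of-ratios scaling 13 and 16, beside 29.4% and 29.1%. In HET the fit on the TPM scale called 4 members higher and 27 lower, beside 14.3% and 59.7% of all genes, and the fit with median-of-ratios scaling 15 and 15, beside 32.3% and 32.6%. In WT the fit on the TPM scale called 4 members higher and 25 lower, beside 13.9% and 61.9% of all genes, and the fit with median-of-ratios scaling 19 and 12, beside 31.6% and 32.3%. Becn1 and Atg16l1 were called lower on the TPM scale and higher after scaling in KO. The same held for Becn1, Atg5, Atg12 and Gabarap in HET, and for Atg13, Rb1cc1, Becn1, Atg5, Atg16l1 and Gabarap in WT. Members called lower on the TPM scale alone were Atg13, Wipi2, Atg2a, Atg2b, Atg7, Atg12 and Gabarapl2 in KO, Atg13, Atg101, Rb1cc1, Uvrag, Atg2b, Atg7, Gabarapl2 and Epg5 in HET, and Pik3c3, Pik3r4, Atg2a, Atg2b, Atg7, Gabarapl2 and Epg5 in WT. Members called higher only after scaling were Atg3, Atg4b, Atg4c, Atg5, Gabarap and Tax1bp1 in KO, Wipi2, Atg3, Atg4b, Atg4c, Atg10, Atg16l1 and Tax1bp1 in HET, and Atg101, Uvrag, Wipi2, Atg3, Atg4b, Atg4c, Atg10, Atg12 and Tax1bp1 in WT. No direction is given here for members that changed sign between scalings.

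Other cell types moved with LPS as well. The summed level of 10 oligodendrocyte-lineage markers was 189 to 612 TPM in KO LPS against 544 to 1806 in KO UT, 184 to 537 in HET LPS against 731 to 1634 in HET UT, and 164 to 821 in WT LPS against 988 to 2389 in WT UT. Under both scalings 6, 5 and 7 of these 10 markers were lower with LPS in KO, HET and WT, beside 29.1%, 32.6% and 32.3% of all genes. Microglial markers were lower for 10, 12 and 12 of 15 and higher for 2, 2 and 3. Neuronal markers were lower for 4, 6 and 6 of 8. Astrocyte markers were lower for 4, 5 and 4 of 8, and 1 of the 8 was higher in each genotype. Vascular or stromal markers were higher for 2, 3 and 2 of the 6 tested and lower for 0. Border macrophage or monocyte markers were higher for 2, 2 and 0 of the 4 tested and lower for 2, 1 and 1. The part of other cell types in the results of LPS was not tested. In such bulk libraries, fewer cells of a type and less RNA per cell cannot be told apart.

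**Figure D2:**
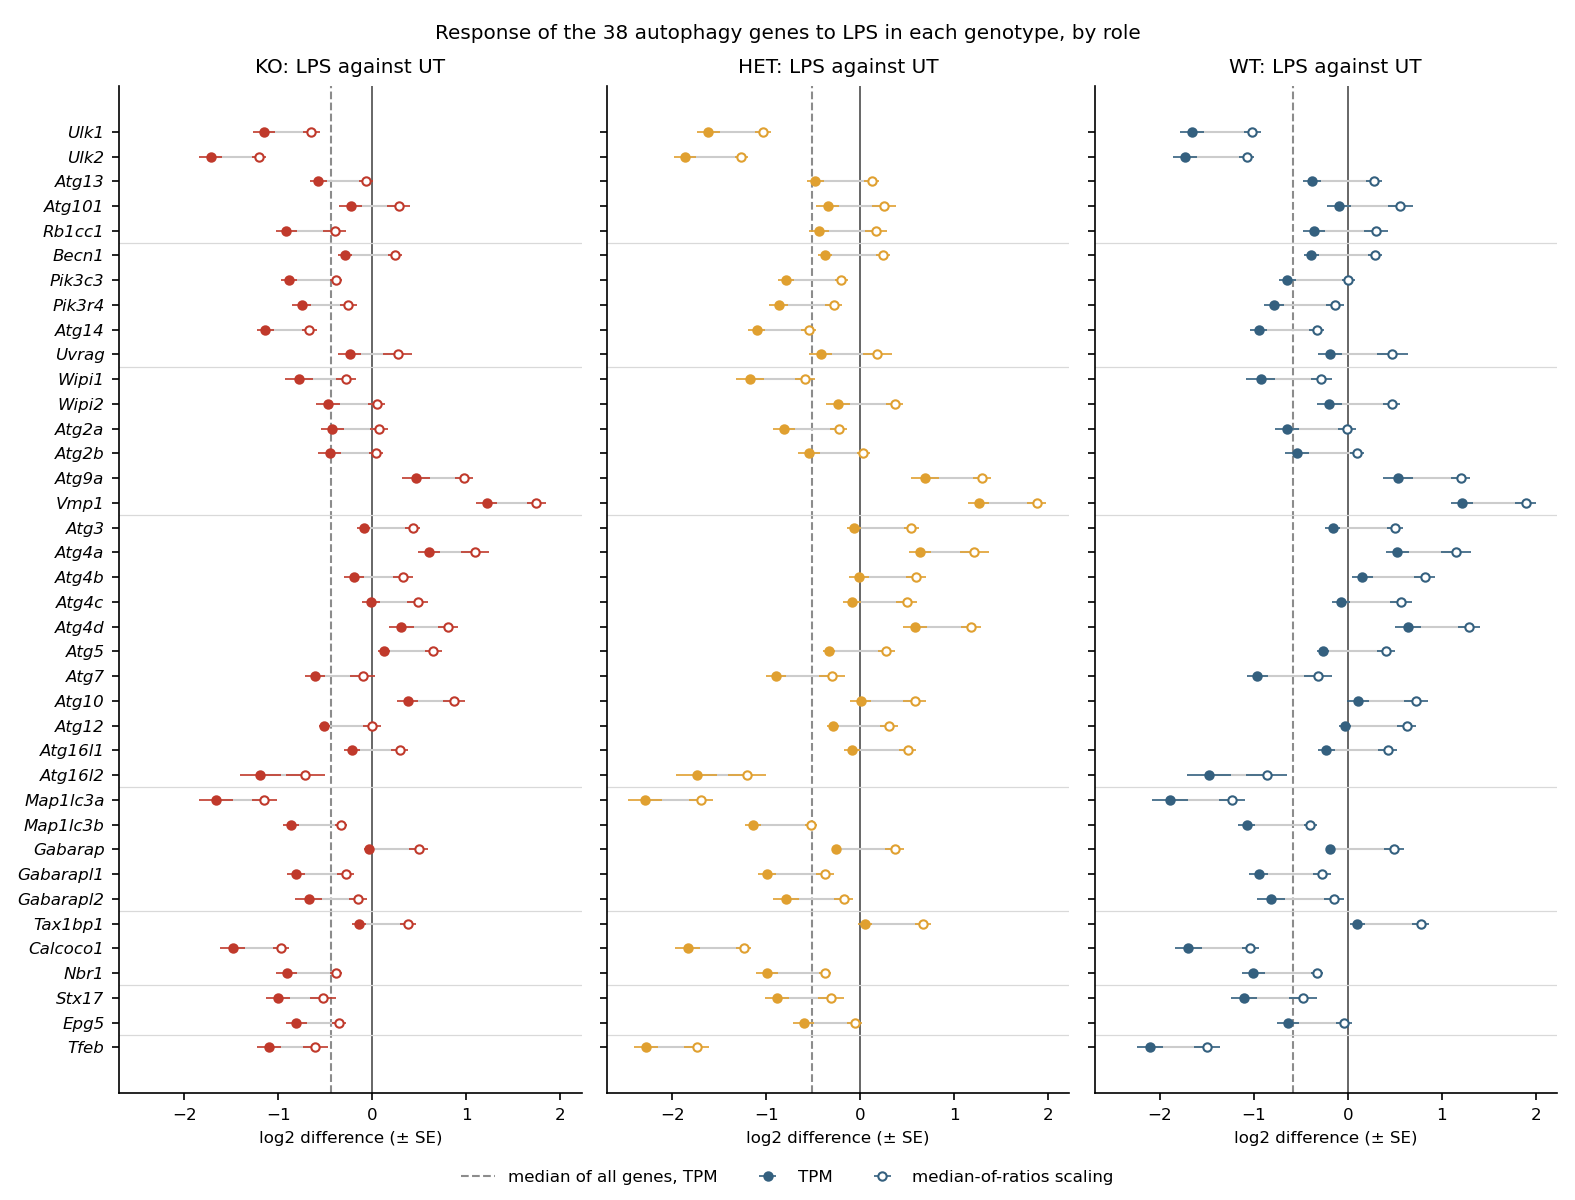
Log2 difference between LPS and untreated libraries (x axis, ± SE) for each of the 38 members (rows, by role) in KO, HET and WT microglia, on the TPM scale (filled) and after median-of-ratios scaling (open), with the median of all genes on the TPM scale as a dashed line. Vmp1 lies at 1.21 to 1.26 on the TPM scale in all 3 genotypes, and Tfeb lies at −1.10 in KO, −2.28 in HET and −2.11 in WT.

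Of the 5 genes of the initiation complex, both kinase genes fell. Ulk1 encodes the kinase that starts autophagosome formation when nutrients are short. It was at 9.77, 16.3, 13.4, 15.6 and 12.5 TPM in the KO LPS libraries, against 30.5, 32.4, 31.7, 33.8 and 26.4 TPM in KO UT. In HET it was at 9.27, 12.1, 11.3, 11.2 and 8.18 TPM with LPS, against 34.6, 36.2, 38.1, 34.5 and 26.1 TPM without, and in WT at 11.8, 10.4, 10.3, 12.5 and 10.8 TPM with LPS, against 37.5, 40.0, 37.8 and 34.1 TPM without. No LPS library reached an untreated one of the same genotype. The log2 differences were −1.15 ± 0.12, −1.61 ± 0.12 and −1.66 ± 0.13 in KO, HET and WT (adjusted p = 1e-10, 5.67e-15 and 1.62e-14).

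Ulk2, the gene of the closely related second kinase, was at 14.7, 23.8, 23.3, 17.1 and 13.7 TPM in KO LPS, against 62.5, 63.4, 60.9, 64.0 and 58.6 TPM in KO UT. HET LPS libraries had 18.8, 19.5, 16.5, 18.1 and 14.0 TPM, against 69.6, 67.3, 64.3, 68.7 and 57.8 TPM in HET UT. WT LPS libraries had 23.0, 18.4, 19.7, 21.2 and 14.4 TPM, against 69.7, 59.9, 65.1 and 69.7 TPM in WT UT. Again the groups did not overlap, and the log2 differences were −1.72 ± 0.12 in KO, −1.86 ± 0.12 in HET and −1.73 ± 0.13 in WT (adjusted p = 1.2e-15, 6.86e-17 and 4.22e-15). Rb1cc1 encodes FIP200, the scaffold of the complex. It was lower under both scalings in KO alone, with a log2 difference of −0.92 ± 0.11 (adjusted p = 2.6e-09). Its HET and WT differences were −0.44 and −0.36 on the TPM scale, and 0.17 and 0.30 after scaling. The partner genes Atg13 and Atg101 were not called in 1 direction under both scalings in any genotype.

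In the PI3-kinase complex, Atg14, which directs the complex to autophagosome formation, was lower under both scalings in all 3 genotypes. It averaged 5.58 ± 0.790 TPM in KO LPS against 13.5 ± 1.01 in KO UT, 5.92 ± 0.654 in HET LPS against 13.8 ± 1.37 in HET UT, and 6.85 ± 0.639 in WT LPS against 14.1 ± 0.349 in WT UT (SD, n = 5, and 4 in WT UT). Pik3c3, the catalytic subunit VPS34, and Pik3r4, its regulatory partner VPS15, were lower under both scalings in KO and HET. In WT these genes were called on the TPM scale alone, at −0.64 and −0.78. Becn1, the Beclin 1 scaffold, changed sign with the scaling in all 3 genotypes, at −0.29, −0.38 and −0.39 on the TPM scale and 0.24, 0.24 and 0.29 after scaling in KO, HET and WT. Uvrag, the subunit of the alternative endosomal complex, was called in neither fit in KO, and under 1 scaling only in HET and WT.

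Among the 6 genes that supply and extend the membrane, 2 rose. Vmp1 was at 209, 204, 199, 230.2 and 219 TPM in KO LPS, against 88.8, 115, 87.3, 99.5 and 69.6 TPM in KO UT. HET libraries had 219, 222, 224, 239 and 212 TPM with LPS, against 104, 80.5, 102, 93.2 and 85.8 TPM without. WT libraries had 257, 245, 221, 195 and 221 TPM with LPS, against 99.2, 94.0, 91.2 and 104 TPM without. Each LPS library lay above every untreated library of its genotype. The log2 differences were 1.21 ± 0.11, 1.26 ± 0.11 and 1.22 ± 0.12 in KO, HET and WT (adjusted p = 1.38e-12, 3.27e-13 and 5.13e-12), and after scaling they were 1.74, 1.88 and 1.89.

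Atg9a encodes a scramblase carried on vesicles that seed new autophagosomes. It was at 29.2, 35.6, 32.4, 30.9 and 32.2 TPM in KO LPS against 22.3, 23.0, 27.0, 27.4 and 16.9 TPM in KO UT. In HET it was at 45.1, 44.1, 41.8, 37.2 and 33.1 TPM with LPS against 28.6, 23.5, 31.0, 24.1 and 17.3 TPM without, and in WT at 43.2, 38.8, 42.9, 41.1 and 34.7 TPM with LPS against 32.8, 22.7, 26.4 and 28.1 TPM without. The groups did not overlap in any genotype, and the log2 differences were 0.46 ± 0.15, 0.69 ± 0.15 and 0.54 ± 0.16 (adjusted p = 0.00677, 9.68e-05 and 0.00267). Wipi1, a reader of the phosphatidylinositol 3-phosphate mark, was lower under both scalings in all 3 genotypes, at −0.78, −1.17 and −0.93. Its paralog Wipi2, which recruits the conjugation machinery, was at −0.47, −0.24 and −0.20 on the TPM scale and was called there in KO alone. The lipid-transfer gene Atg2a was lower under both scalings in HET alone, at −0.81, while Atg2b was called on the TPM scale alone in all 3.

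The 11 conjugation genes held 3 of the 5 members that rose in KO. Atg4a and Atg4d belong to the 4 proteases that trim ATG8 proteins and release them from membranes. Atg4a was at 13.8, 15.3, 14.4, 14.4 and 14.7 TPM in KO LPS against 7.98, 9.10, 8.40, 9.36 and 11.9 TPM in KO UT. HET values were 13.0, 12.7, 13.9, 16.7 and 16.0 TPM with LPS against 9.31, 8.84, 7.26, 10.3 and 8.81 TPM without, and WT values 12.6, 14.0, 12.5, 14.5 and 12.4 TPM with LPS against 9.59, 8.82, 8.31 and 8.79 TPM without. No untreated library reached an LPS library of its genotype, and the log2 differences were 0.60 ± 0.12, 0.64 ± 0.12 and 0.53 ± 0.12 (adjusted p = 2.72e-05, 7.46e-06 and 0.000259).

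For Atg4d, KO LPS libraries had 17.1, 18.8, 15.3, 15.3 and 17.4 TPM against 13.9, 15.3, 14.1, 13.1 and 10.8 TPM in KO UT. HET LPS libraries had 25.4, 27.7, 27.5, 19.9 and 19.8 TPM against 19.4, 15.3, 17.8, 13.6 and 12.6 TPM in HET UT, and WT LPS libraries 23.6, 25.0, 25.7, 26.2 and 25.2 TPM against 15.9, 13.4, 18.0 and 16.2 TPM in WT UT. The log2 differences were 0.31 ± 0.13, 0.58 ± 0.13 and 0.64 ± 0.14 (adjusted p = 0.037, 0.00015 and 9.84e-05). The groups did not overlap, although in KO the lowest LPS library and the highest untreated one were both at 15.3 TPM after rounding. Atg10, the E2-like enzyme that loads ATG12 onto ATG5, was higher in KO, at 10.9, 15.4, 12.3, 17.7 and 13.7 TPM with LPS against 11.6, 10.6, 10.1, 8.5 and 11.7 TPM without. Those ranges overlapped, and the log2 difference was 0.38 ± 0.11 (adjusted p = 0.00299). Its differences in HET and WT were 0.01 and 0.11, with a call in both only after scaling.

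Atg16l2, a paralog of the ATG16L1 subunit that places the conjugation enzyme on membranes, fell. KO libraries had 6.81, 10.6, 6.33, 6.36 and 5.32 TPM with LPS, against 18.8, 16.2, 15.7, 17.4 and 17.6 TPM without. In HET the values were 5.33, 7.68, 2.5, 2.77 and 4.13 TPM with LPS against 15.3, 16.9, 18.3, 16.4 and 14.7 TPM without, and in WT 4.93, 7.38, 7.88, 5.87 and 4.12 TPM with LPS against 20.7, 16.0, 15.8 and 21.0 TPM without. The groups did not overlap, and the log2 differences were −1.19 ± 0.22, −1.74 ± 0.22 and −1.48 ± 0.23 (adjusted p = 1.05e-05, 5.99e-09 and 5.54e-07). Atg7, the E1-like enzyme of both reactions, was called lower on the TPM scale alone in all 3 genotypes, at −0.61, −0.89 and −0.96. Atg3, the E2-like enzyme for ATG8 proteins, differed by −0.09, −0.07 and −0.16 on the TPM scale and was called only after scaling.

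Gabarap kept the largest absolute level of the 5 ATG8 genes under LPS. It was at 583, 541, 506, 561 and 585 TPM in KO LPS, 486, 483, 493, 464 and 463 in HET LPS and 488, 501, 449, 482 and 442 in WT LPS, against 565, 552, 552, 586 and 592 in KO UT, 574, 586, 541, 558 and 594 in HET UT and 564, 563, 513 and 511 in WT UT. Under IL4 it was at 549.8, 548, 558, 533 and 569 TPM in KO, 564, 549, 533, 544 and 575 in HET and 509, 532, 539.6, 473 and 552 in WT. Under pIC it was at 616, 527, 578, 492 and 577 TPM in KO, 611, 575, 554, 587 and 596 in HET and 611, 553, 593, 577 and 613 in WT. On the TPM scale its LPS differences were −0.04, −0.26 and −0.19 (log2) in KO, HET and WT, of which the last 2 were called, while after scaling it was called higher in all 3, at 0.49, 0.37 and 0.49.

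Map1lc3a, which encodes LC3A, fell the most of the 5. It was at 21.2, 26.8, 24.0, 18.3 and 14.7 TPM in KO LPS, 14.6, 17.9, 18.9, 13.6 and 10.1 in HET LPS and 22.8, 18.5, 20.7, 21.5 and 14.9 in WT LPS, against 68.3, 65.7, 70.9, 79.6 and 54.8 in KO UT, 88.9, 78.0, 85.0, 78.0 and 54.0 in HET UT and 87.3, 58.2, 77.5 and 80.6 in WT UT. The LPS and untreated ranges did not overlap in any genotype. The log2 differences were −1.66 ± 0.18, −2.29 ± 0.18 and −1.89 ± 0.19 (adjusted p = 2.57e-10, 2.83e-14 and 3.17e-11). Under IL4 Map1lc3a was at 58.4, 42.4, 59.0, 64.8 and 47.6 TPM in KO, 71.3, 51.7, 59.0, 50.1 and 29.9 in HET and 64.7, 51.0, 69.9, 62.7 and 46.2 in WT. Under pIC it was at 18.9, 20.3, 22.0, 32.9 and 18.3 TPM in KO, 26.1, 22.7, 25.9, 18.2 and 17.6 in HET and 27.5, 26.3, 34.0, 28.5 and 18.5 in WT.

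Map1lc3b, the gene of the widely used autophagosome marker LC3B, was lower with LPS as well. It was at 96.7, 122, 123, 127 and 127 TPM in KO LPS, 108, 120.3, 102, 89.6 and 91.6 in HET LPS and 119, 101, 105, 110.2 and 101 in WT LPS, against 221, 217, 229, 227 and 189.8 in KO UT, 241, 215, 239, 232 and 204 in HET UT and 234, 199, 248 and 229 in WT UT. Under IL4 it was at 196, 180.4, 225, 197 and 197 TPM in KO, 214, 189, 211, 186 and 158 in HET and 209, 183, 218, 206 and 185 in WT. Under pIC it was at 109, 135, 119, 118 and 105 TPM in KO, 123, 131, 134, 122 and 118 in HET and 137, 126, 149, 141 and 125 in WT. With LPS the log2 differences were −0.86 ± 0.09, −1.14 ± 0.09 and −1.08 ± 0.09 (adjusted p = 3.04e-11, 7.77e-15 and 2.65e-13), and no LPS library reached an untreated one of its genotype.

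Gabarapl1 and Gabarapl2 encode the other GABARAP proteins. Gabarapl1 was at 65.7, 89.3, 70.2, 105 and 99.9 TPM in KO LPS, 74.6, 83.9, 71.9, 68.4 and 78.9 in HET LPS and 78.5, 78.1, 72.7, 82.9 and 74.9 in WT LPS, against 151, 139, 162, 161 and 135 in KO UT, 158, 138, 173, 156 and 132 in HET UT and 161, 134, 153 and 154 in WT UT. Its log2 differences of −0.81 ± 0.09, −0.99 ± 0.09 and −0.95 ± 0.10 were called under both scalings (adjusted p = 1.28e-09, 5.46e-12 and 9.39e-11). Gabarapl2 was at 70.2, 74.6, 65.8, 67.8 and 66.2 TPM in KO LPS, 69.7, 70.0, 83.0, 55.8 and 51.7 in HET LPS and 83.0, 63.8, 75.5, 69.6 and 64.5 in WT LPS, against 107, 112, 119, 129 and 90.9 in KO UT, 120.4, 103, 142, 115 and 93.0 in HET UT and 131, 108, 132 and 134 in WT UT. It was called on the TPM scale alone, at −0.68, −0.79 and −0.82, and moved by −0.15, −0.17 and −0.15 after scaling. Under IL4 Gabarapl1 was at 146, 138, 149, 141 and 132 TPM in KO, 132, 124, 154, 133 and 117 in HET and 139.7, 127, 153, 131 and 126 in WT, and Gabarapl2 at 97.7, 88.3, 102, 110.5 and 86.9 TPM in KO, 111, 90.0, 113, 85.3 and 56.0 in HET and 108, 87.2, 107, 102 and 72.4 in WT. Under pIC Gabarapl1 was at 79.7, 91.3, 89.0, 78.1 and 76.4 TPM in KO, 88.0, 97.3, 93.3, 91.8 and 90.7 in HET and 96.8, 98.1, 98.5, 98.3 and 98.4 in WT, and Gabarapl2 at 63.1, 77.0, 64.6, 75.5 and 55.2 TPM in KO, 72.8, 75.1, 75.3, 59.7 and 51.6 in HET and 74.4, 72.6, 83.0, 75.0 and 55.8 in WT.

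The make-up of the ATG8 pool differed with treatment. A member's share of the summed TPM of its family does not depend on scaling between libraries, so it was used to describe paralogs, with no test. Gabarap made up 65.3% ± 2.56 of ATG8 transcripts in KO LPS, 64.9% ± 1.95 in HET LPS and 63.2% ± 1.56 in WT LPS, against 51.1% ± 2.71 in KO UT, 50.2% ± 3.60 in HET UT and 48.2% ± 3.38 in WT UT (SD over libraries). With IL4 its share was 52.9% in KO, 54.4% in HET and 51.6% in WT. In the pIC table it was 65.7% in KO, 65.6% in HET and 63.9% in WT. Map1lc3a held 2.49% ± 0.640 in KO LPS, 2.02% ± 0.390 in HET LPS and 2.62% ± 0.330 in WT LPS, against 6.07% ± 0.570 in KO UT, 6.71% ± 0.980 in HET UT and 6.77% ± 0.890 in WT UT. Its LPS ranges, 1.64% to 3.14% in KO and 2.14% to 2.88% in WT, lay below the untreated ranges of 5.16% to 6.73% in KO and 5.47% to 7.42% in WT. The TPM of near-identical paralogs depends on how reads that fit several genes were assigned, for which no source used here gives the setting.

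**Figure D3:**
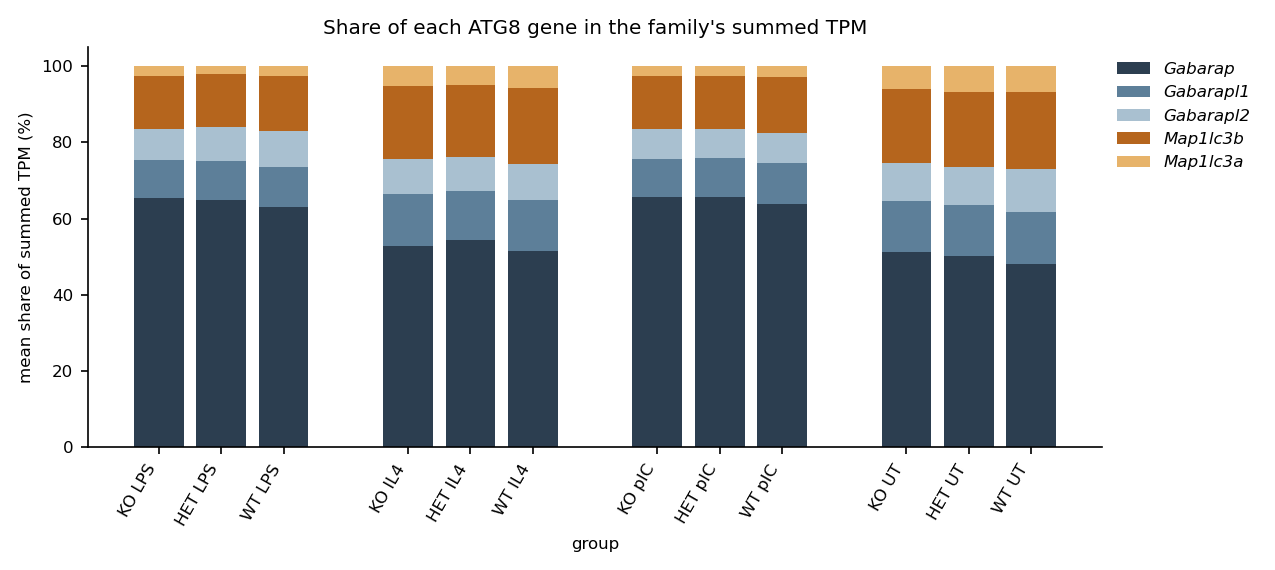
Share of each of the 5 ATG8 genes in their summed TPM, in percent, as the mean of the libraries of each of the 12 groups. Gabarap takes 63.2% to 65.3% in the LPS groups and 48.2% to 51.1% in the untreated groups, and Map1lc3a takes 2.02% to 2.62% in the LPS groups and 6.07% to 6.77% in the untreated groups.

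Of the receptors, Calcoco1, linked to the turnover of endoplasmic reticulum and Golgi membranes, fell under LPS. It was at 17.9, 24.2, 19.9, 17.7 and 14.7 TPM in KO LPS against 52.1, 53.4, 60.2, 57.1 and 48.1 TPM in KO UT. HET values were 17.2, 18.3, 14.2, 14.4 and 11.7 TPM with LPS against 64.9, 53.9, 63.3, 58.2 and 43.0 TPM without, and WT values 23.0, 18.4, 18.1, 20.2 and 12.4 TPM with LPS against 65.2, 50.1, 63.5 and 65.4 TPM without. The groups were separate, with log2 differences of −1.49 ± 0.14, −1.83 ± 0.14 and −1.70 ± 0.14 (adjusted p = 3.08e-12, 4.81e-15 and 3.14e-13). Nbr1, a receptor for ubiquitinated cargo, was lower under both scalings too, at −0.91, −0.99 and −1.01. Tax1bp1, another ubiquitin-binding receptor, was at −0.14, 0.05 and 0.10 on the TPM scale and was called only after scaling. Stx17, the autophagosomal SNARE, was lower under both scalings in all 3 genotypes, at −1.0, −0.88 and −1.10. Epg5 was lower under both scalings in KO alone, at −0.81, beside −0.60 in HET and −0.64 in WT on the TPM scale.

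Tfeb, the transcription factor that induces lysosomal and autophagy genes, fell less in KO than in WT, as the interaction contrast further on shows. It was at 9.81, 11.1, 10.0, 10.8 and 7.62 TPM in KO LPS, against 25.4, 29.3, 17.4, 19.1 and 21.6 TPM in KO UT. In HET it was at 4.10, 4.85, 4.81, 3.04 and 3.24 TPM with LPS, against 22.1, 27.1, 21.8, 23.4 and 21.0 TPM without, and in WT at 6.13, 5.57, 4.22, 5.07 and 3.37 TPM with LPS, against 23.2, 23.2, 26.5 and 22.9 TPM without. LPS and untreated libraries did not overlap in any genotype. The log2 differences were −1.10 ± 0.13, −2.28 ± 0.13 and −2.11 ± 0.14 in KO, HET and WT (adjusted p = 1.99e-09, 1.36e-18 and 1.22e-16). After scaling they were −0.61, −1.74 and −1.5.

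TFEB is known to bind the E-box CACGTG within its longer CLEAR motif. RefSeq promoter windows (GRCm38.p6) were available for 31 of the 38 members, and the 250 bases before each window's start, a transcript start that need not be the outermost of the gene, were searched for CACGTG, which reads the same on both strands. It was present in 3 of 39 member windows (7.69%), beside 1978 of 32851 windows of all genes (6.02%), and in none of the 3 windows of Tfeb. The windows of Atg3 and Atg5 are shown, with the motif in capitals, because they lie at or near the annotated start of conjugation genes whose levels are compared here. Both are on the plus strand. The Atg3 window, chr16:45158579-45158828, ends at the gene's start in RefSeq and holds 2 copies. The Atg5 window, chr10:44268089-44268338, ends at a transcript start 17 bases inside the gene's outermost start, and its copy begins 14 bases before that transcript start. The third match, in Atg7, lies before a transcript start 27969 bases inside the gene and is not shown. Of the 39 member windows, 6 started more than 1000 bases inside their gene.
Atg3: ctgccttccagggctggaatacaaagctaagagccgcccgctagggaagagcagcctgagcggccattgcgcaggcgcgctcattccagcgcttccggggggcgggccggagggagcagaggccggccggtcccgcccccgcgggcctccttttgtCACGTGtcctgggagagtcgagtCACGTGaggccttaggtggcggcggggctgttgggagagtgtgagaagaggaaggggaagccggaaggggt
Atg5: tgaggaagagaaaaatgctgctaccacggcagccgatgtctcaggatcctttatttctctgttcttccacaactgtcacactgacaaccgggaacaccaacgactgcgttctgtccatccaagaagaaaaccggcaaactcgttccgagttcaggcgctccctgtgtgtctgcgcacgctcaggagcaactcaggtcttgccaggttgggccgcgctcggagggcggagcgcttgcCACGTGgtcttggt
With LPS, Atg5, the acceptor of ATG12, differed by 0.13 in KO, −0.33 in HET and −0.26 in WT on the TPM scale, and by 0.65, 0.28 and 0.40 after scaling, so that its sign in HET and WT depended on the scaling. The values of Atg3 are given with the other conjugation genes. A match of letters is a description of these windows, and binding was not measured.

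Part of the machinery differed between KO and WT under LPS. Relative to WT LPS, 3 members were higher in KO LPS under both scalings, Tfeb, Atg5 and Atg10, beside 12.7% of all genes. Lower under both were 9 members, Atg13, Rb1cc1, Pik3c3, Atg14, Wipi2, Atg4b, Atg4d, Atg12 and Tax1bp1, beside 12.8% of all genes. In this comparison the fit on the TPM scale called 5 members higher and 9 lower, beside 14.4% and 13.2% of all genes, and the fit with median-of-ratios scaling 3 and 12, beside 14.2% and 16.8%. Atg7 and Gabarap were called higher on the TPM scale alone, at 0.38 and 0.23. Atg2b, Atg9a and Epg5 were called lower only after scaling, at −0.19, −0.36 and −0.28. The median member differed by −0.07 on the TPM scale, beside 0.01 for all genes.

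Tfeb was at 9.81, 11.1, 10.0, 10.8 and 7.62 TPM in KO LPS, against 6.13, 5.57, 4.22, 5.07 and 3.37 TPM in WT LPS. All 5 KO libraries lay above all 5 WT libraries, and the log2 difference was 0.90 ± 0.13 (adjusted p = 5.6e-07). Atg5 was at 41.4, 52.4, 45.0, 45.3 and 47.4 TPM in KO LPS, against 33.4, 30.9, 33.2, 35.7 and 32.5 TPM in WT LPS. It was higher in all 5 KO libraries than in any WT library, by 0.47 ± 0.06 (log2, adjusted p = 1.01e-07). Atg10 was at 10.9, 15.4, 12.3, 17.7 and 13.7 TPM in KO LPS, against 10.2, 9.94, 10.3, 11.6 and 8.35 TPM in WT LPS. These ranges overlapped, with a log2 difference of 0.43 ± 0.11 (adjusted p = 0.00268). Fitted on the 2 groups alone, this call was lost at an adjusted p of 0.0549. Without KO LPS replicate 1, 5 members were higher under both scalings.

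Atg4d was at 17.1, 18.8, 15.3, 15.3 and 17.4 TPM in KO LPS, against 23.6, 25.0, 25.7, 26.2 and 25.2 TPM in WT LPS, a log2 difference of −0.56 ± 0.13 (adjusted p = 0.000941) with no overlap. Wipi2 was at 18.0, 25.1, 25.7, 27.7 and 27.4 TPM in KO LPS, against 33.0, 35.0, 36.4, 33.6 and 32.7 TPM in WT LPS. It also did not overlap, and differed by −0.46 ± 0.13 (adjusted p = 0.00445). Rb1cc1 was at 18.2, 21.0, 22.3, 27.0 and 19.0 TPM in KO LPS, against 30.5, 25.2, 27.9, 26.6 and 33.4 TPM in WT LPS. Here the ranges overlapped, and the log2 difference was −0.41 ± 0.11 (adjusted p = 0.00371). Atg12, the ubiquitin-like protein joined to ATG5, was at 17.0, 19.4, 18.7, 19.7 and 18.2 TPM in KO LPS, against 25.1, 24.8, 23.5, 23.5 and 26.3 TPM in WT LPS. Its groups were separate, with a log2 difference of −0.39 ± 0.06 (adjusted p = 2.07e-06). Within the conjugation machinery, Atg5 and Atg12 transcripts differed in opposite directions. The other 5 lower members differed by −0.39 (Atg4b), −0.36 (Atg13), −0.26 (Tax1bp1), −0.26 (Atg14) and −0.23 (Pik3c3). Ranges overlapped for Atg4b, Atg14 and Pik3c3.

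Markers of another myeloid type moved with this comparison. The summed level of 6 markers of border macrophages or monocytes was 789 to 1333 TPM in KO LPS and 81.1 to 628 in HET LPS, against 85.4 to 199 in WT LPS, most of it Pf4, which averaged 1005, 362 and 137 TPM. Of the 4 of these markers that were tested, 3 were higher in KO than in WT under both scalings. Ly6c2 averaged 16.4 TPM in KO, 1.48 in HET and 0.729 in WT, while Lyve1, Cd163 and Ccr2 reached at most 0.472 TPM in any LPS library. Of 15 microglial markers, 6 were higher in KO LPS than in WT LPS under both scalings, beside 12.7% of all genes, and 0 were lower. Their part in the differences of the autophagy genes was not tested. No marker of the oligodendrocyte lineage, neurons or astrocytes was called between KO and WT under LPS with both scalings.

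**Figure D4:**
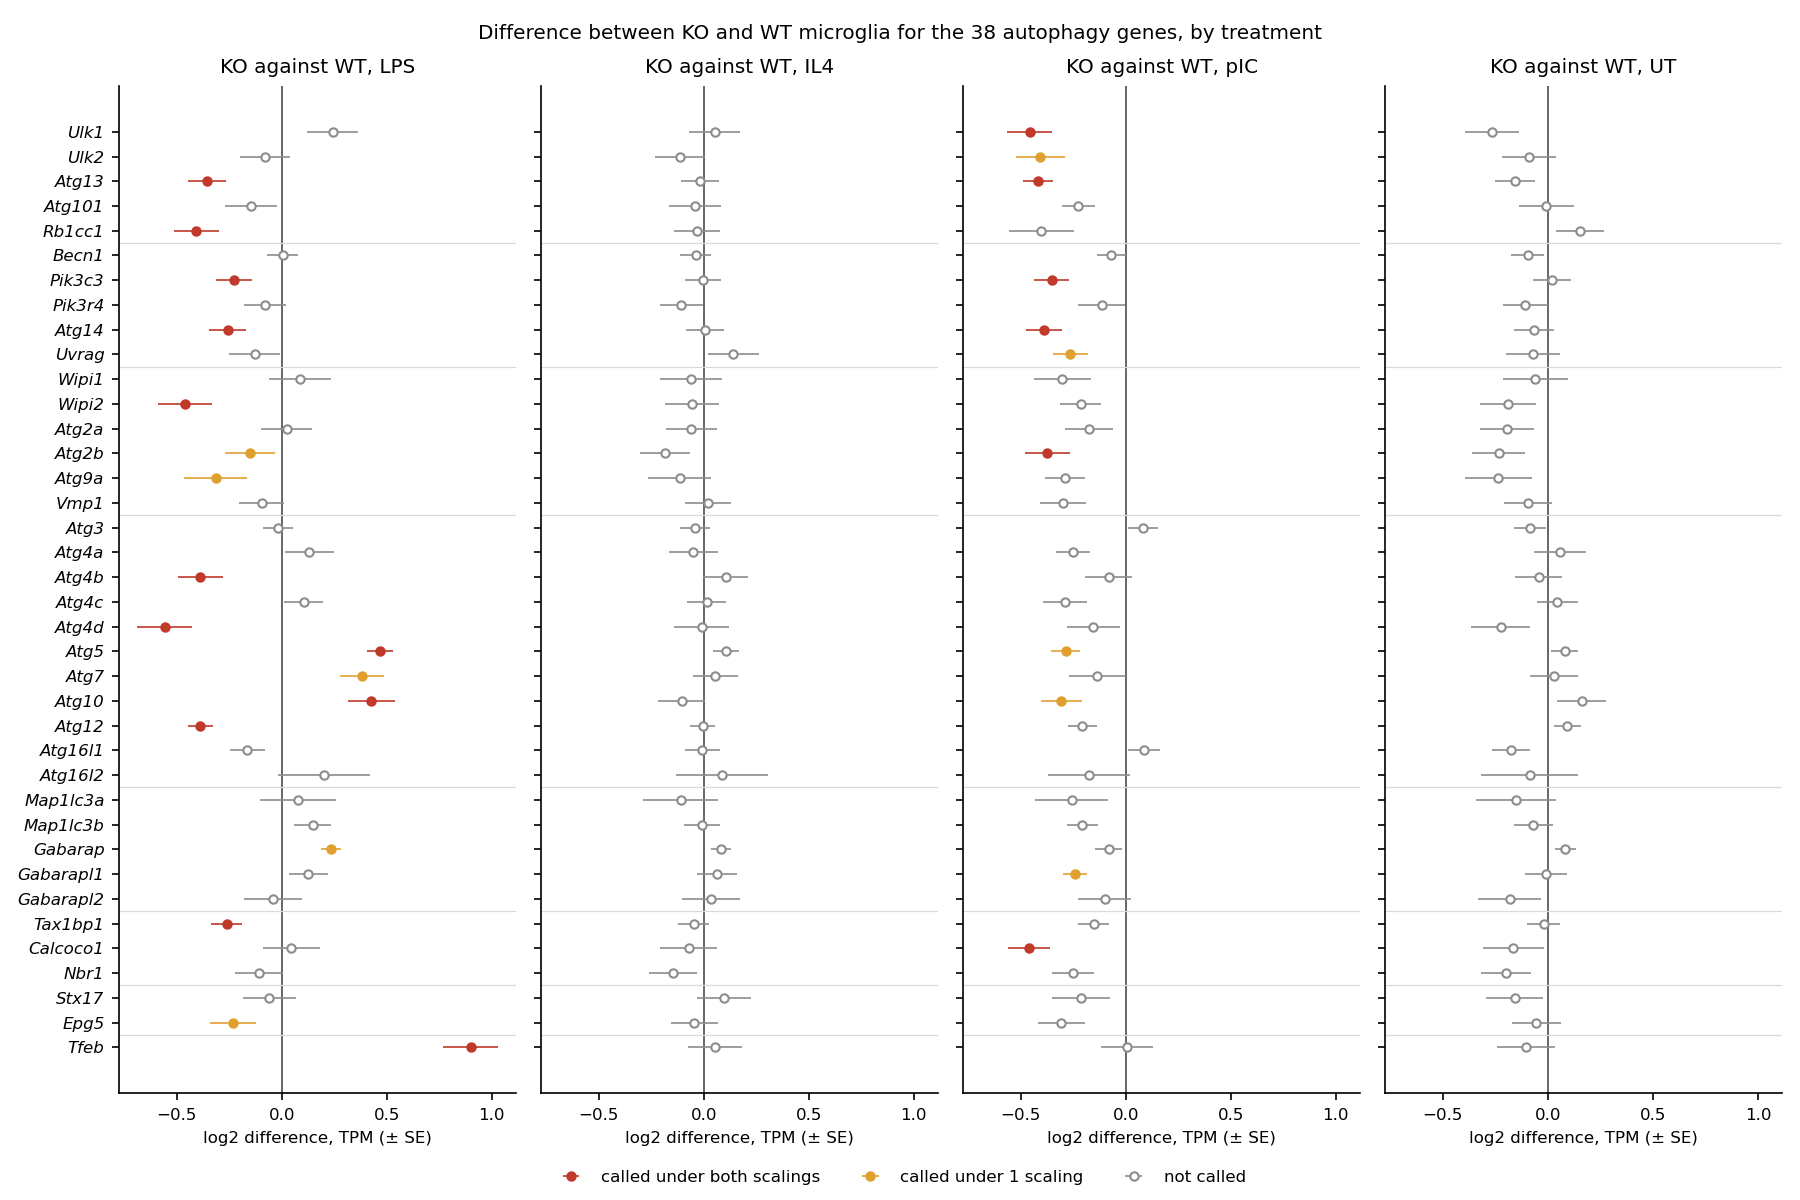
Log2 difference between KO and WT libraries on the TPM scale (x axis, ± SE) for each of the 38 members (rows, by role) under LPS, IL4, pIC and UT. Red marks members called under both scalings, orange members called under 1 scaling and open points members not called: under LPS 3 are red and higher and 9 red and lower, under pIC 6 are red and lower, and under IL4 and UT none is called.

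KO and HET microglia both carry Cre, and under LPS the share of members that differed between them was near that of all genes. Higher in KO than in HET under both scalings were 4 of 38 members, Tfeb, Atg16l2, Atg5 and Ulk1, beside 10.7% of all genes. Lower were 4, Atg4d, Wipi2, Rb1cc1 and Atg12, beside 11.1%. In this comparison the fit on the TPM scale called 6 members higher and 4 lower, beside 12.5% and 11.5% of all genes, and the fit with median-of-ratios scaling 7 and 8, beside 12% and 15%. Called higher on the TPM scale alone were Atg10 and Gabarap, higher only after scaling Wipi1, Map1lc3a and Calcoco1, and lower only after scaling Atg13, Atg9a, Tax1bp1 and Epg5. The KO LPS libraries are the same in this comparison and in that with WT, so the 2 are not independent.

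Tfeb was at 9.81, 11.1, 10.0, 10.8 and 7.62 TPM in KO LPS against 4.10, 4.85, 4.81, 3.04 and 3.24 TPM in HET LPS, with no overlap and a log2 difference of 1.12 ± 0.13 (adjusted p = 7.72e-09). Atg5 was at 41.4, 52.4, 45.0, 45.3 and 47.4 TPM in KO LPS against 32.3, 34.7, 32.7, 34.0 and 30.9 TPM in HET LPS, again with no overlap, and differed by 0.48 ± 0.06 (adjusted p = 9.67e-08). Atg16l2 was at 6.81, 10.6, 6.33, 6.36 and 5.32 TPM in KO LPS against 5.33, 7.68, 2.5, 2.77 and 4.13 TPM in HET LPS. These ranges overlapped, as did those of Ulk1, at 9.77, 16.3, 13.4, 15.6 and 12.5 TPM in KO LPS against 9.27, 12.1, 11.3, 11.2 and 8.18 TPM in HET LPS. The log2 differences of Atg16l2 and Ulk1 were 0.61 ± 0.22 and 0.34 ± 0.12 (adjusted p = 0.0358 and 0.0337). The call of Atg16l2 was lost, at adjusted p of 0.0517 to 0.148, without KO LPS replicate 1 or 2 or HET LPS replicate 3, 4 or 5. That of Ulk1 was lost, at 0.0552 to 0.138, without KO LPS replicate 2, 3 or 4 or HET LPS replicate 1 or 5.

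Atg4d was at 17.1, 18.8, 15.3, 15.3 and 17.4 TPM in KO LPS against 25.4, 27.7, 27.5, 19.9 and 19.8 TPM in HET LPS, a log2 difference of −0.48 ± 0.13 (adjusted p = 0.00474). Wipi2 was at 18.0, 25.1, 25.7, 27.7 and 27.4 TPM in KO LPS against 33.9, 36.9, 29.6, 29.2 and 29.5 TPM in HET LPS, a difference of −0.36 ± 0.13 (adjusted p = 0.034). Neither gene's groups overlapped. Without KO LPS replicate 1, whose Wipi2 value was the lowest, the Wipi2 difference was −0.25 at an adjusted p of 0.162, and its call was also lost, at 0.051 to 0.104, without KO LPS replicate 2 or HET LPS replicate 1 or 2. Rb1cc1 was at 18.2, 21.0, 22.3, 27.0 and 19.0 TPM in KO LPS against 28.1, 25.7, 24.3, 21.6 and 34.3 TPM in HET LPS, with overlap and a difference of −0.30 ± 0.11 (adjusted p = 0.0391). Its call was lost, at 0.0516 to 0.192, without KO LPS replicate 1, 2 or 5 or HET LPS replicate 1, 2 or 5. Atg12 was at 17.0, 19.4, 18.7, 19.7 and 18.2 TPM in KO LPS against 21.5, 22.5, 20.7, 20.6 and 24.3 TPM in HET LPS, with no overlap and a difference of −0.23 ± 0.06 (adjusted p = 0.00406). Its call was lost after quantile normalization, at −0.20 and an adjusted p of 0.062. Fitted on the KO LPS and HET LPS groups alone, 5 of these 8 calls were lost, with an adjusted p of 0.161 for Atg16l2, 0.176 for Ulk1, 0.0806 for Wipi2, 0.187 for Rb1cc1 and 0.0683 for Atg12. With no filter on low values those of Atg16l2, Ulk1, Wipi2 and Rb1cc1 were lost, at 0.0574 to 0.0701, and that of Rb1cc1 also after quantile normalization, at 0.0658. Without KO LPS replicate 2 or HET LPS replicate 5, 2 members were higher under both scalings, and without KO LPS replicate 5, 7 were. Without KO LPS replicate 2, 1 member was lower under both, and without KO LPS replicate 1 or HET LPS replicate 1, 2 or 5, 2 were.

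The LPS response itself, LPS minus UT, was compared between KO and WT by an interaction contrast. Tfeb and Ulk1 (5.3% of members) had a higher response in KO under both scalings, meaning a smaller fall, beside 6.79% of all genes. Rb1cc1 and Atg12 (5.3%) had a lower response in KO, beside 6.87%. Both shares lay near those of all genes. In this contrast the fit on the TPM scale called 3 members higher and 2 lower, beside 9.36% and 7.03% of all genes, and the fit with median-of-ratios scaling 2 and 10, beside 7.18% and 10.4%. Tfeb fell by 1.10 in KO and by 2.11 in WT on the log2 scale, an interaction of 1.00 ± 0.19 (adjusted p = 0.000142). Ulk1 fell by 1.15 in KO and by 1.66 in WT, an interaction of 0.51 ± 0.18 (adjusted p = 0.0402). WT UT held no replicate 5, and in KO UT replicate 5 was the lowest library for Ulk1, at 26.4 TPM. Without that KO UT library the interaction of Ulk1 was 0.45 (adjusted p = 0.0873). For Rb1cc1 the responses were −0.92 in KO and −0.36 in WT, an interaction of −0.56 ± 0.16 (adjusted p = 0.0112). For Atg12 they were −0.51 and −0.03, an interaction of −0.48 ± 0.09 (adjusted p = 9.35e-05). Atg5 was called on the TPM scale alone, at 0.39 ± 0.09 (adjusted p = 0.00169), with 0.13 in KO and −0.26 in WT. Called lower only after scaling were Atg13, Pik3c3, Atg14, Wipi2, Atg4b, Atg4d, Tax1bp1 and Epg5. The call of Ulk1 was lost, at adjusted p of 0.0548 to 0.0976, without KO LPS replicate 2, 3 or 4, KO UT replicate 1 or 5, WT LPS replicate 2, 3 or 5, or WT UT replicate 1, 2 or 3, and at 0.0682 with no filter. Under both scalings 1 member rather than 2 had a higher response without any of those libraries, and likewise without KO LPS replicate 5, KO UT replicate 3 or WT LPS replicate 1.

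Under pIC the members called between KO and WT were all lower in KO. Under both scalings 6 were lower, Calcoco1, Ulk1, Atg13, Atg14, Atg2b and Pik3c3, beside 3.38% of all genes, and 0 were higher, beside 3.36%. In this comparison the fit on the TPM scale called 0 members higher and 11 lower, beside 3.4% and 8.11% of all genes, and the fit with median-of-ratios scaling 0 and 6, beside 5.2% and 3.38%. Ulk2, Uvrag, Atg5, Atg10 and Gabarapl1 were called on the TPM scale alone. All genes had a median difference of −0.11 on the TPM scale, and the members one of −0.25.

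Calcoco1 was at 18.8, 22.9, 22.3, 21.5 and 16.2 TPM in KO pIC, against 33.0, 25.5, 28.1, 29.0 and 25.9 TPM in WT pIC, a log2 difference of −0.46 ± 0.10 (adjusted p = 0.00759). Ulk1 was at 11.3, 12.3, 10.6, 13.3 and 9.53 TPM in KO pIC, against 17.0, 16.0, 16.9, 15.7 and 14.4 TPM in WT pIC, a difference of −0.46 ± 0.11 (adjusted p = 0.0131). For neither gene did a KO library reach a WT library. Atg13, a regulatory subunit of the ULK complex, was at 22.6, 27.3, 27.3, 24.9 and 24.3 TPM in KO pIC, against 35.1, 33.5, 35.8, 32.0 and 34.1 TPM in WT pIC, a difference of −0.42 ± 0.07 (adjusted p = 0.00202). Atg14 was at 7.50, 7.42, 9.27, 8.46 and 7.71 TPM in KO pIC, against 11.3, 9.95, 11.5, 10.3 and 11.3 TPM in WT pIC, a difference of −0.39 ± 0.09 (adjusted p = 0.00815). These genes were separate between the groups too, as were Atg2b at −0.37 and Pik3c3 at −0.35. After quantile normalization Atg14 was no longer called, at −0.24 and an adjusted p of 0.145. Without KO pIC replicate 2 or 5, or WT pIC replicate 1, 2 or 3, 3 members rather than 6 were lower under both scalings. Of 15 microglial markers, 6 were higher and 1 lower in KO pIC than in WT pIC under both scalings, beside 3.36% and 3.38% of all genes. Their summed level was 12287 to 16533 TPM in KO pIC against 9382 to 11772 in WT pIC. Its part in these differences was not tested.

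Between KO and HET under pIC, 1 member, Calcoco1, was lower under both scalings, beside 1.52% of all genes, and 0 were higher, beside 1.52%. In this comparison the fit on the TPM scale called 0 members higher and 5 lower, beside 1.65% and 3.6% of all genes, and the fit with median-of-ratios scaling 0 and 1, beside 2.08% and 1.55%. Calcoco1 was at 18.8, 22.9, 22.3, 21.5 and 16.2 TPM in KO pIC, against 26.9, 29.5, 25.6, 25.6 and 24.3 TPM in HET pIC. The groups did not overlap, and the log2 difference was −0.37 ± 0.10 (adjusted p = 0.0434). Its call was lost, at adjusted p of 0.0524 to 0.117, without KO pIC replicate 1 or 5 or any 1 of the 5 HET pIC libraries, at 0.0701 with no filter and at 0.0881 in these 2 groups alone. Without KO pIC replicate 3, 2 members were lower under both scalings. Atg14, Uvrag, Atg4a and Atg5 were called lower on the TPM scale alone, at −0.37, −0.30, −0.32 and −0.27. Tfeb, which differed between KO and WT under LPS, differed by 0.01 ± 0.12 between KO and WT under pIC (adjusted p = 0.983).

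The pIC and untreated libraries were deposited in separate tables, so their levels are set side by side without a test. Tfeb averaged 18.2 ± 3.01 TPM in KO pIC, 19.0 ± 3.06 in HET pIC and 18.0 ± 1.63 in WT pIC, against 22.5 ± 4.82 in KO UT, 23.1 ± 2.38 in HET UT and 23.9 ± 1.73 in WT UT. Vmp1 averaged 109 ± 15.0 TPM in KO pIC, 131 ± 16.5 in HET pIC and 134 ± 16.8 in WT pIC, against 92.0 ± 16.7 in KO UT, 93.0 ± 10.0 in HET UT and 97.2 ± 5.84 in WT UT. Ulk2 averaged 14.1 ± 2.62 TPM in KO pIC, 16.7 ± 1.5 in HET pIC and 18.9 ± 2.17 in WT pIC, against 61.9 ± 2.20 in KO UT, 65.5 ± 4.79 in HET UT and 66.1 ± 4.66 in WT UT. With LPS, for comparison, Tfeb averaged 9.87 ± 1.36 TPM in KO, 4.01 ± 0.849 in HET and 4.87 ± 1.09 in WT.

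IL4, which drives alternative activation of macrophages, left most members uncalled. In KO microglia 1 member was higher under both scalings (Tfeb), beside 4.57% of all genes, and 1 lower (Ulk2), beside 2.14%. HET had 0 higher, beside 3.52%, and 3 lower (Map1lc3a, Ulk2 and Ulk1), beside 1.93%. WT had 1 higher (Tfeb), beside 3.28%, and 1 lower (Ulk1), beside 1.31%. In KO the fit on the TPM scale called 1 member higher and 1 lower, beside 5.38% and 3.03% of all genes, and the fit with median-of-ratios scaling 1 and 3, beside 5.73% and 2.58%. In HET the fit on the TPM scale called 0 members higher and 3 lower, beside 3.97% and 3.09% of all genes, and the fit with median-of-ratios scaling 0 and 4, beside 4.31% and 2.19%. In WT the fit on the TPM scale called 1 member higher and 2 lower, beside 3.68% and 2.63% of all genes, and the fit with median-of-ratios scaling 2 and 3, beside 4.41% and 1.41%. Called lower only after scaling were Calcoco1 and Nbr1 in KO, Nbr1 in HET, and Ulk2 and Calcoco1 in WT. In WT Atg10 was called higher only after scaling, and Atg14 lower on the TPM scale alone.

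Tfeb was at 38.9, 33.2, 30.3, 33.5 and 35.3 TPM in KO IL4 against 25.4, 29.3, 17.4, 19.1 and 21.6 TPM in KO UT, with no overlap and a log2 difference of 0.60 ± 0.13 (adjusted p = 0.00119). In WT it was at 34.4, 38.9, 32.3, 26.9 and 33.0 TPM with IL4 against 23.2, 23.2, 26.5 and 22.9 TPM without, again with no overlap, a difference of 0.44 ± 0.14 (adjusted p = 0.0443). The WT call was lost, at adjusted p of 0.0636 to 0.148, without WT IL4 replicate 1, 2, 3 or 5 or WT UT replicate 1, 2 or 4. It was also lost with a pseudocount of 0.1, at 0.0719, and with no filter, at 0.0693. HET libraries had a Tfeb difference of 0.28 ± 0.13 (adjusted p = 0.228). IL4 and LPS libraries differed from untreated ones in opposite directions for this gene in KO and WT.

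Ulk2 was at 46.8, 48.0, 48.7, 49.5 and 40.2 TPM in KO IL4 against 62.5, 63.4, 60.9, 64.0 and 58.6 TPM in KO UT, a log2 difference of −0.40 ± 0.12 (adjusted p = 0.0263), and at 49.8, 45.2, 50.3, 42.9 and 37.9 TPM in HET IL4 against 69.6, 67.3, 64.3, 68.7 and 57.8 TPM in HET UT, a difference of −0.53 ± 0.12 (adjusted p = 0.00242). The groups were separate in both genotypes. In KO the call was lost, at 0.0508 to 0.0998, without KO IL4 replicate 5 or KO UT replicate 1, 2 or 4. Ulk1 was at 31.8, 27.6, 26.1, 24.6 and 19.6 TPM in HET IL4 against 34.6, 36.2, 38.1, 34.5 and 26.1 TPM in HET UT, with overlap and a difference of −0.38 ± 0.12 (adjusted p = 0.0465). In WT it was at 28.5, 24.3, 29.0, 27.5 and 21.6 TPM with IL4 against 37.5, 40.0, 37.8 and 34.1 TPM without, with no overlap and a difference of −0.50 ± 0.13 (adjusted p = 0.00885). Map1lc3a in HET was at 71.3, 51.7, 59.0, 50.1 and 29.9 TPM with IL4 against 88.9, 78.0, 85.0, 78.0 and 54.0 TPM without, with overlap and a difference of −0.58 ± 0.18 (adjusted p = 0.0417). The HET call of Ulk1 was lost, at 0.053 to 0.223, without any 1 of HET IL4 replicates 2 to 5 or HET UT replicates 1 to 4. That of Map1lc3a was lost, at 0.0657 to 0.25, without HET IL4 replicate 2, 4 or 5 or any 1 of HET UT replicates 1 to 4. Fitted on the HET groups alone, the calls of Ulk1 and Map1lc3a were lost at 0.148 and 0.169, and with no filter at 0.0754 and 0.0805, and with a pseudocount of 0.1 that of Ulk1 at 0.0557. Each of the 7 libraries that ended the Map1lc3a call also left 1 member lower in HET under both scalings. The replicate number was also fitted as a block, with 1 effect per number shared by the untreated, LPS and IL4 libraries of all 3 genotypes. The labels do not say whether a number marks a shared culture day or litter. With this block 4 members in KO and 5 in WT were lower with IL4 on the TPM scale, beside 5.29% and 3.97% of all genes under the same block. Under both scalings 3 were lower in each, beside 4.19% and 2.38%. Without KO IL4 replicate 4, 2 members were lower in KO under both scalings. In WT, 3 were lower under both without WT IL4 replicate 1, and 2 without WT IL4 replicate 4 or WT UT replicate 2, and 2 were higher without WT UT replicate 3.

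Without a Toll-like receptor ligand no member was called between genotypes. Between KO and WT, 0 of 38 were called in untreated cells (1 at an unadjusted p under 0.05) and 0 under IL4 (0 unadjusted), beside 0.0314% and 0.044% of all genes. Between KO and HET, 0 were called in untreated cells (0 unadjusted) and 0 under IL4 (1 unadjusted), beside 0.00629% of all genes in each. Between HET and WT, limma called 0 members under all 4 treatments, with 0, 3, 0 and 1 at an unadjusted p under 0.05 in UT, LPS, IL4 and pIC. All genes called there were 0.0126% in each of UT, LPS and IL4, and 0% under pIC. The difference in IL4 response between KO and WT had 0 calls (0 unadjusted), beside 0% of all genes. With median-of-ratios scaling the count was also 0 in each of these 9 comparisons. The largest untreated differences between KO and WT on the TPM scale were −0.27 and 0.16.

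The make-up of the other paralog families is likewise given as a description. Wipi1 made up 34.8% ± 5.33 of the summed TPM of Wipi1 and Wipi2 in KO LPS, 23.7% ± 2.39 in HET LPS and 26.3% ± 2.43 in WT LPS, against 40.1%, 38.3% and 37.9% in KO UT, HET UT and WT UT. The KO LPS range of 27.2% to 39.5% overlapped with the HET and WT ranges, 21.2% to 27.4% and 22.1% to 27.7%, at its lowest library alone. Atg16l2 made up 27.4% ± 6.15 of the Atg16l1 and Atg16l2 pair in KO LPS, 17.4% ± 6.57 in HET LPS and 22.4% ± 5.81 in WT LPS, against 44.0%, 42.6% and 42.5% in untreated KO, HET and WT. Ulk1 held 42.5% ± 5.01 of the Ulk1 and Ulk2 pair in KO LPS, 37.4% ± 2.76 in HET LPS and 36.8% ± 3.58 in WT LPS, against 33.3%, 34.0% and 36.2% in untreated KO, HET and WT. Among the 4 proteases, Atg4d took 21.8% in KO LPS, 27.1% in HET LPS and 27.0% in WT LPS, and Atg4b, the most abundant of them, 41.8%, 42.5% and 45.5%. In untreated cells Atg4b held 50.3% in KO, 50.1% in HET and 50.1% in WT. Atg2a held 53.4% of the Atg2a and Atg2b pair in KO LPS, 49.2% in HET LPS and 50.1% in WT LPS, against 52.8%, 54.1% and 52.1% in untreated KO, HET and WT. In the pIC table its share was 65.0% in KO, 62.6% in HET and 61.2% in WT.

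Around the core, 59 of 60 listed genes of upstream control, selective autophagy and fusion were tested; Calcoco2 was not analysed here. With LPS, 5 (8.47%) were higher under both scalings in KO, beside 13.1% of all genes, and 26 (44.1%) lower, beside 29.1%. In HET, 6 (10.2%) were higher under both scalings, beside 14.3% of all genes, and 22 (37.3%) lower, beside 32.6%. In WT, 7 (11.9%) were higher under both scalings, beside 13.9% of all genes, and 20 (33.9%) lower, beside 32.3%. In WT both shares lay near those of all genes. Bnip3, a mitophagy receptor, rose by 1.42, 2.09 and 2.65 (log2) in KO, HET and WT, and Sqstm1, which encodes the p62 receptor, by 0.53, 0.81 and 1.25. Sesn1, a stress-induced inhibitor of mTORC1 signalling, differed by −3.01, −4.27 and −4.28, and Pink1, the kinase that starts mitophagy, by −2.08, −2.25 and −2.05, both lower under both scalings. Vamp8, a lysosomal SNARE, rose by 0.70 in KO.

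Between KO and WT under LPS, 6 of these 59 genes (10.2%) were higher under both scalings, beside 12.7% of all genes, and 9 (15.3%) lower, beside 12.8%. These shares lay near those of all genes. Sesn1 averaged 13.7 ± 3.87 TPM in KO LPS against 4.87 ± 1.05 in WT LPS (SD, n = 5 each), a log2 difference of 1.30 ± 0.14 (adjusted p = 1.36e-09). Ncoa4, the ferritin receptor, was higher by 0.63 and Foxo1, a transcription factor of autophagy genes, by 0.57. Plekhm1, an adaptor of lysosome fusion, differed by −1.21 ± 0.10 (adjusted p = 8.32e-13), with 16.4 ± 2.30 TPM in KO LPS against 39.3 ± 6.26 in WT LPS. Bnip3 differed by −1.21 ± 0.17 (adjusted p = 5.17e-07), with 91.4 ± 25.1 TPM in KO LPS against 212 ± 56.5 in WT LPS, and Ddit4, another inhibitor of mTORC1, by −0.89. Against HET LPS, 4 were higher, beside 10.7% of all genes, and 5 lower, beside 11.1%, led by Sesn1 at 1.21 and Plekhm1 at −1.04. The LPS response differed between KO and WT for 4 (6.78%) with a higher response in KO, beside 6.79% of all genes, and for 4 (6.78%) with a lower one, beside 6.87%, among them Sesn1 at 1.26 and Sqstm1 at −0.73.

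Under pIC, 2 of the 59 were lower in KO than in WT under both scalings, Sesn2 at −0.60 and Pink1 at −0.55, a share of 3.39% beside 3.38% of all genes, and none was called between KO and HET under both. With IL4, 3 were higher and 1 lower in KO, beside 4.57% and 2.14% of all genes. In HET the counts were 2 and 3, beside 3.52% and 1.93%, and in WT 3 and 0, beside 3.28% and 1.31%. Mitf, a transcription factor related to TFEB, rose in all 3, by 0.75, 0.83 and 0.82, as did Nrbf2, a subunit of the PI3-kinase complex, by 0.36, 0.40 and 0.24. Retreg1, a receptor for endoplasmic reticulum, was lower in KO and HET, at −0.74 and −0.69.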

How the data were processed

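Bulk RNA was sequenced from cultured microglia, 300 ng of total RNA per library, per the labels' protocols. The authors deposited TPM values per gene in 2 tables, 44 libraries (untreated, LPS and IL4) and 15 libraries (pIC). DRAGEN, FastQC, Picard and Trimmomatic, with build mm10, are named in the submitters' processing notes. The strand setting and the treatment of reads that fit several genes are not given in the sources used here. Columns summed to 999806 to 999935 TPM, no 2 columns were identical, and all columns were matched to labelled samples. WT UT replicate 5 was not analysed here. In each other group replicate 5 had the fewest genes at 1 TPM or more, for example 13594 in KO UT and 13710 in HET UT. The lowest WT UT library had 14116. Beyond the block for the replicate number and the fits without a library, the part of this imbalance in contrasts with WT UT was not tested.

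Each table was fitted with limma 3.58.1 in R 4.3.3 (lmFit, eBayes with trend, 1 mean per group) on log2(TPM + 1), for genes that reached 1 TPM in 4 or more libraries, with Benjamini-Hochberg adjustment over all genes and a threshold of 0.05. In all, 20 comparisons were tested. The fit was repeated after median-of-ratios scaling. The fits were tested on simulated data. Alternatives were quantile normalization, a pseudocount of 0.1, no filter, the compared groups alone, a block for the replicate number and leaving out each library. Results under both scalings with the block or without a library were added after the data were seen. Libraries with the same replicate number deviated together in every pair, with correlations over 0.1, for LPS and IL4 against UT in KO (0.13 to 0.345 and 0.173 to 0.558) and WT (0.117 to 0.273 and 0.191 to 0.418). The same held for HET against WT in UT (0.121 to 0.29), and the number was taken as a pairing in these comparisons. The standard errors and adjusted p printed here still come from fits without the block, so they ignore that pairing. Values in every library are given for the 5 ATG8 genes and, per comparison, for up to 4 members with the highest and 4 with the lowest log2 difference among those called under both scalings. Other pathway genes are named up to 3 each way. Ulk1 and the other LPS values outside this rule were chosen after they were seen. The members, the roles and the other lists were chosen with earlier results of these data known. Promoter sequences are RefSeq's for GRCm38.p6.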

Additional observations from a re-analysis of the deposited data

Results flagged for a closer look

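In 27 of 456 gene and group combinations (5.92%) the highest or lowest library stood apart from the others of its group by Dixon's criterion. Chance flags about 1 in 20 groups. WT UT replicate 2 was lowest for 4 members, Rb1cc1 at 31.2 TPM (others 38.5 to 39.8), Gabarapl2 at 108 TPM (131 to 134), Tax1bp1 at 89.5 TPM (106 in the others) and Calcoco1 at 50.1 TPM (63.5 to 65.4). KO UT replicate 5 was lowest for Wipi2 at 27.2 TPM (35.4 to 37.0) and Epg5 at 7.19 TPM (8.99 to 9.50), and highest for Pik3r4 at 23.0 TPM (20.5 to 21.1).

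With LPS, KO replicate 1 was lowest for Wipi2 at 18.0 TPM (25.1 to 27.7) and Map1lc3b at 96.7 TPM (122 to 127), and KO replicate 2 was highest for Atg16l2 at 10.6 TPM (5.32 to 6.81). HET replicate 5 was lowest for Atg10 at 9.00 TPM (11.2 to 12.0) and Nbr1 at 51.5 TPM (65.4 to 70.8), HET replicate 4 was highest for Becn1 at 120.5 TPM (93.8 to 101), and HET replicate 1 was highest for Atg3 at 50.8 TPM (43.0 to 44.7). WT replicate 5 was lowest for Wipi1 at 9.25 TPM (12.6 to 13.4) and WT replicate 3 highest for Atg4c at 13.3 TPM (12.1 to 12.4).

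With pIC, KO replicate 5 was lowest for Atg4c at 7.32 TPM (9.12 to 9.57) and Tax1bp1 at 85.9 TPM (95.0 to 98.1), and KO replicate 4 was highest for Map1lc3a at 32.9 TPM (18.3 to 22.0). WT replicate 5 was lowest for Atg9a at 23.2 TPM (28.5 to 30.5) and highest for Atg12 at 29.2 TPM (24.5 to 25.7), and WT replicate 1 was lowest for Gabarapl1 at 96.8 TPM (98.1 to 98.5). With IL4, KO replicate 5 was lowest for Calcoco1 at 33.3 TPM (44.6 to 46.1), HET replicate 5 highest for Atg3 at 55.0 TPM (47.4 to 49), HET replicate 3 lowest for Atg7 at 25.4 TPM (28.3 to 29.2), and WT replicate 2 lowest for Atg4c at 13.2 TPM (14.5 to 15.0). In untreated cells WT replicate 3 was highest for Tfeb at 26.5 TPM (22.9 to 23.2).

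The LPS response differed between KO and WT by limma's interaction contrast for 5 members on the TPM scale. KO minus WT was 1.00 (log2) for Tfeb, 0.51 for Ulk1, 0.39 for Atg5, −0.56 for Rb1cc1 and −0.48 for Atg12.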

How the results depend on the processing

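Counts are members called on the TPM scale unless both scalings are named. Calls over all genes shift with the setting too. These counts, and those without a library given above, describe how the calls move and are not results about the members. The shares of all genes with median-of-ratios scaling are given above. Where no count or share of all genes stands beside another setting, none is given. With median-of-ratios scaling the LPS counts were 13 higher and 16 lower in KO, 15 and 15 in HET, and 19 and 12 in WT. Quantile normalization gave 8, 9 and 12 higher with LPS, beside 3777, 4055 and 4034 of 15908 genes. Gabarap changed direction with median-of-ratios scaling, at 0.49 in KO, 0.37 in HET and 0.49 in WT. This scaling also gave 3 lower in KO and 2 higher in WT with IL4, 3 higher between KO and WT under LPS, 8 lower between KO and HET under LPS, 6 and 1 lower under pIC between KO and WT and between KO and HET, and 10 with a lower LPS response in KO. Quantile normalization gave 5, 7 and 7 lower with IL4 in KO, HET and WT, beside 656, 563 and 398 of 15908 genes. In WT it gave 2 higher with IL4, beside 731. Under pIC it gave 4 and 1 lower against WT and HET, beside 562 and 274 of 13919 genes. It also gave 10 higher against HET under LPS, beside 2214 of 15908 genes, and 4 with a lower response, beside 1327. A pseudocount of 0.1 gave 0 higher in WT with IL4. With no filter there were 1 lower in HET and 0 higher in WT with IL4, 7 and 3 lower under pIC against WT and HET, and 3 higher and 2 lower against HET under LPS. Fits on the compared groups alone gave 1 lower each in HET and WT with IL4, 3 higher against WT and 3 higher and 1 lower against HET under LPS, and 5 and 0 lower under pIC against WT and HET.

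The replicate block gave 4, 9 and 5 lower with IL4 in KO, HET and WT, 17 and 9 lower under pIC against WT and HET, and 11 higher and 7 lower against HET under LPS. Of all genes, the block called 5.29% and 3.97% lower with IL4 in KO and WT. Under both scalings the block gave 3, 6 and 3 lower with IL4 in KO, HET and WT, 6 higher against WT under LPS, 8 higher and 7 lower against HET under LPS, and 4 lower against HET under pIC. Of all genes, 4.19% and 2.38% were lower with IL4 in KO and WT under both scalings with the block. The block changed no call of a named member. In the other comparisons the lowest correlation of a pair was under 0.1, and whether those libraries shared more than a number is unknown. It was 0.053 for IL4 in HET, −0.07 for KO against WT under LPS and −0.066 under pIC, and −0.071 for KO against HET under LPS. There 4, 2, 2 and 3 of 5 libraries correlated best with their own number. For HET against WT it was 0.085 under LPS, 0.097 under IL4 and 0.059 under pIC, with 4, 4 and 5 of 5 best with their own number. The mean correlation was 0.285 for IL4 in HET, beside 0.207 for LPS in KO, which was taken as paired.

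Leaving out 1 library at a time gave, with IL4, 0 to 2 lower in KO, 1 to 5 in HET and 1 to 4 in WT, with 0 to 2 higher in WT. It gave 7 to 12 and 0 to 7 lower under pIC against WT and HET, and 3 to 9 higher and 2 to 5 lower against HET under LPS. Under both scalings it gave 0 to 2, 1 to 4 and 1 to 3 lower with IL4 in KO, HET and WT and 0 to 2 higher in WT, 3 to 5 higher against WT under LPS, 2 to 7 higher and 1 to 5 lower against HET under LPS, 3 to 5 and 0 to 2 lower under pIC against WT and HET, and 1 to 2 with a higher response. The cause of these shifts was not tested. Of 67 results of named members, 3 reversed and 3 lost their call with median-of-ratios scaling, and 9 lost it with no filter, 9 in the compared groups alone, 3 after quantile normalization, 2 with the smaller pseudocount and 0 with the block. Of 692 values without a library, 64 lost the call and 0 reversed. Depth is unknown from TPM.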
